A study of Mus musculus with 5 samples.

Results

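Chromatin regulators were examined on 5 arrays of lung RNA, each set against a single pool of control lung RNA. They were taken as the genes whose platform symbols begin with Hdac, Sirt, Kdm, Kmt, Smarc, Ezh, Dnmt, Setd or Arid, or with Chd, Cbx, Brd, Mbd or Kat and a digit. These 89 symbols lie on 101 array features, and 67 of them had values on at least 4 arrays, among 10081 genes and unnamed features measured in that way. The measured genes fell into 14 families that write, erase or read marks on histones and DNA or that move nucleosomes.

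DNA in the nucleus is wound around histones, and chemical marks on both decide how open a gene is to transcription. Acetyl groups are added by acetyltransferases, removed by histone deacetylases and NAD-dependent sirtuins, and read by bromodomain proteins. Methyl groups are added by methyltransferases, removed by demethylases and read by chromodomain proteins, and nucleosome remodellers spend ATP to slide or evict nucleosomes. In the lung, deacetylases, sirtuins, bromodomain proteins and the Polycomb enzyme Ezh2 have been studied as regulators of inflammation and fibrosis.

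All animals were of the inbred strain 129svJ. Each array carried amplified lung RNA of 1 bleomycin-treated mouse (mice 1 to 5, 1 group) together with a pooled, amplified preparation from lungs of control mice of the strain. Bleomycin is a DNA-cleaving antibiotic used to injure the lung. The sources used here give no dose, route, day, sex, age, pool size or dyes. What was deposited are log ratios, read here as log2 although no source names the base, and every fold below would be larger if they were natural logarithms.

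Which way the ratio runs could not be settled. Sample titles put the treated mouse before the pool, but the labels give no dyes, and many genes of known response lay on the side opposite to that order. With limma, each gene's mean ratio was tested against 0, and a Benjamini-Hochberg adjusted p under 0.05 over all 10081 is called past the threshold, which 49.6% of all genes and unnamed features were. Of 16 measured genes that are usually induced in injured lung, 13 passed below 0 and 2 above 0, and of 6 epithelial or endothelial genes that are usually lower there 5 passed above 0 and 0 below. The p53 targets Cdkn1a and Ccng1, which DNA breaks induce, averaged −1.61 ± 0.13 and −1.77 ± 0.21 (SD, n = 5), and the chemokine Cxcl1 averaged −2.70 ± 0.58. The surfactant gene Sftpa1 averaged 2.41 ± 0.30 and the endothelial gene Pecam1 2.45 ± 0.30. The exceptions were the myofibroblast actin Acta2 at 0.71 ± 0.33 and the matrix gene Postn at 1.07 ± 0.14, with Col1a1 and Sftpc not past the threshold. These genes were sorted by their usual response after their values were seen. Because the titles and most of these genes point opposite ways, values are given by their side of 0, with no statement on which of mouse and pool held more RNA. In whole lung, fewer cells of a type and less RNA per cell cannot be told apart.

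Arrays held values for 11350 to 12083 of 17280 features, with deposited medians from 0.011 to 0.026, and each was centred on its median. No spot intensities were used here, so the number of arrays limits the precision. Over all genes the arrays correlated with Pearson's r between 0.732 and 0.857 (10 pairs), and over the 67 chromatin regulators with r between 0.593 and 0.869. Genes are not independent and the pool is shared, so these coefficients are a description. Lung markers were present on the arrays, with 15 of 17 alveolar, 14 of 14 airway and 17 of 19 endothelial markers measured, but ratios do not show their levels. For reading the counts by list that follow, 25.8% of all genes and unnamed features passed above 0 and 23.9% below 0. Of these lists 10, 8 and 11 markers passed above 0 and 0, 3 and 2 below 0. Macrophage markers had 12 of 16 below 0 and 3 above, dividing cell markers 19 of 23 below and 2 above, fibroblast and matrix markers 9 of 14 below and 4 above, and skeletal muscle markers 9 of 11 below and 0 above. The mean of the muscle list ran from −3.96 in mouse 1 to −0.086 in mouse 3, and that of the macrophage list from −1.20 in mouse 1 to −0.66 in mouse 4. Lymphocyte markers had 2 of 15 on each side, neutrophil markers 2 of 9 on each side, and housekeeping genes 3 of 11 below and 2 above. The part of these cell types in the ratios of chromatin regulators was not tested.

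The deacetylase Sirt1 stood farthest from 0 of all measured chromatin regulators, 3.26-fold on the positive side, and only it and the bromodomain protein Brd2, 1.49-fold on the negative side, passed when the pool was counted as a mouse of its own, as 5.09% of all genes did. Their proximal promoters are shown because only these genes passed in that setting, and they lie on opposite sides of 0. The stretches are 250 bases before an annotated start, on the minus strand of GRCm38.p6 in RefSeq, at chr10:63339036-63339285 for Sirt1 and chr17:34122608-34122857 for the outermost of 3 annotated starts of Brd2. Capitals mark the E-box CACGTG in Sirt1 and the core of the NRF1 motif, GCATGCG on either strand, in Brd2.
Sirt1: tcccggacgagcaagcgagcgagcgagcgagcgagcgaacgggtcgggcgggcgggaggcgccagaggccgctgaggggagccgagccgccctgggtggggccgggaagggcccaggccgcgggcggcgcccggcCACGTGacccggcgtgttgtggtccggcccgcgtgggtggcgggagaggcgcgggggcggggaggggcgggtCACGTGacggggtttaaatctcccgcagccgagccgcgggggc
Brd2: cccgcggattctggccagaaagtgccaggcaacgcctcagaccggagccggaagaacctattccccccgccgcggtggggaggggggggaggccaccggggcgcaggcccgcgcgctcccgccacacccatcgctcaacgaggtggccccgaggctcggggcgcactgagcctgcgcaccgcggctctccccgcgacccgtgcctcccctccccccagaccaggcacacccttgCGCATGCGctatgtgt

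The Sirt1 stretch holds CACGTG at −115 to −110 and again at −43 to −38 from the start, and GC boxes (GGGCGG, either strand) at 6 places before the start. The Brd2 stretch holds overlapping NRF1 matches on both strands from −16 to −9 and the ETS motif CCGGAAG at −203 to −197. Another Brd2 start has the YY1 core AAGATGG at −28 to −22. Promoter windows of 300 bases (250 before to 50 after a start) were found for 55 of the 67 measured genes, 76 windows in all. An E-box lay in 9.21% of these windows and in 7.15% of all 32851 windows of the table, and the NRF1 core in 9.21% against 3.58%. A GC box lay in 71.1% against 35.7%, and CCAAT in 35.5% against 37.4%. TATAAA lay in 5.26% against 13.6%. Both strands were searched, a palindrome was counted once, and GC boxes can overlap each other. Among windows of genes measured on these arrays, GC boxes lay in 56.1%, E-boxes in 9.39%, TATAAA in 9.37%, CCAAT in 37.3% and the NRF1 core in 5.79%. The YY1 core lay in 6.58% of windows of chromatin regulators and 6.74% of those of measured genes, and the ETS motif in 10.5% and 14.6%. The E2F motif TTTCCCGC lay in 3.95% and 1.80%, and the CREB motif TGACGTCA in 1.32% and 2.86%. The median window of a chromatin regulator had 65.3% GC and 26 CpG pairs, and the median window of measured genes 59.3% and 18. A match describes letters in a window and shows no binding.

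The comparison of treated mice with the control pool asked which chromatin regulators differed in injured lung. By limma, 34 of the 67 passed, 9 below 0 and 25 above 0. Of all genes and unnamed features 49.6% passed, 23.9% below 0 and 25.8% above 0, and of the chromatin regulators 50.7%, 13.4% and 37.3%. The share that passed was thus near that of all genes. The median ratio of the 67 was 0.10 against −0.0066 over all, and the median size of the ratio 0.23 against 0.21. Of the 67, 37 lay on 1 side of 0 on every measured array, as did 57.3% of all genes and unnamed features. Of the 34 that passed, 29 did, but passing itself selects genes whose arrays agree. A difference of at least 2-fold was reached by Sirt1 alone, while 5.59% of all genes passed at that size.

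The test treats the pool as fixed and leaves out the spread between control mice. Given the same spread as a treated mouse, the pool left Sirt1 (adjusted p = 0.0124) and Brd2 (adjusted p = 0.0493), 2 of 67, where 5.09% of all genes passed, 2.11% below 0 and 2.98% above 0. Testing for ratios beyond 1.2-fold left 11 of the 67, 3 below 0 and 8 above 0, against 18.3% of all genes (8.04% below 0 and 10.3% above 0). Those were Brd2, Kdm5c and Chd4 below 0 and Hdac5, Sirt4, Sirt1, Setd3, Ezh1, Smarcc2, Arid2 and Arid5b above 0.

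**Figure D1:**
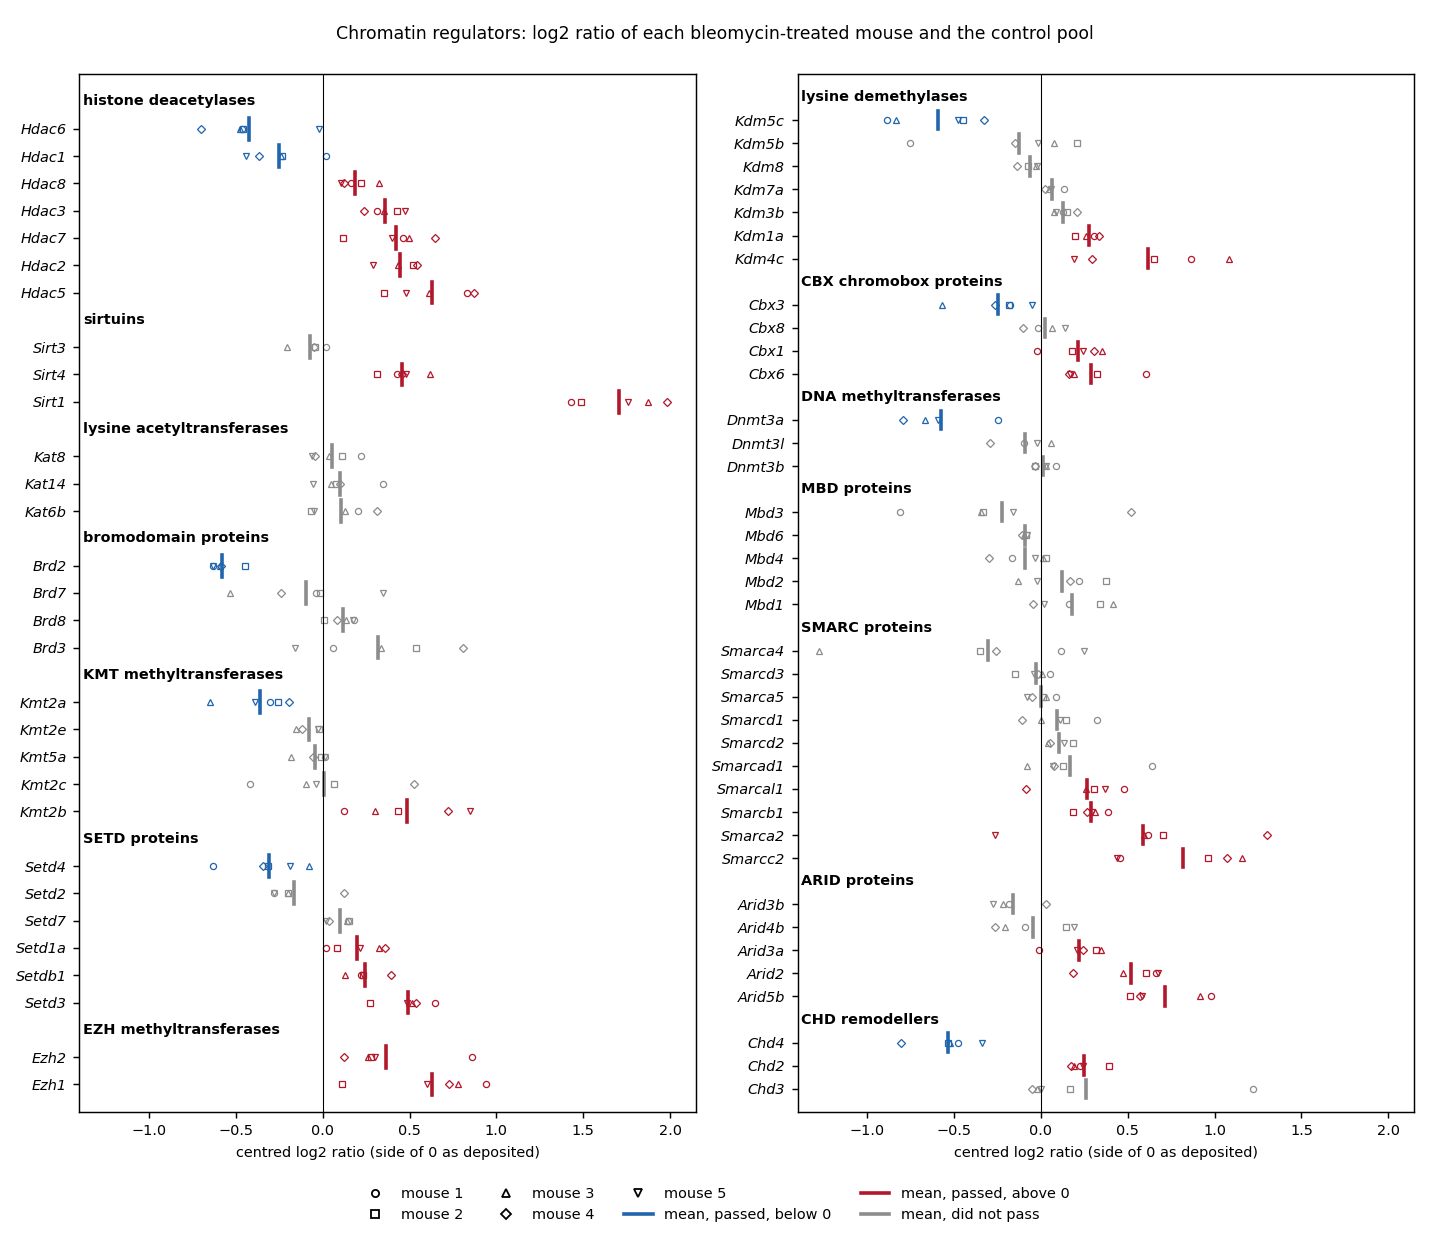
Centred log2 ratio (x axis) of the 67 measured chromatin regulators, grouped by family (y axis), with a symbol for each of mice 1 to 5 and a bar for the mean, coloured by whether and on which side of 0 the gene passed. Sirt1, between 1.43 and 1.98, lies apart from the other genes, whose means run from −0.59 to 0.82.

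Among the erasers of acetylation, all 7 measured histone deacetylases passed, 2 below 0 and 5 above 0. Of all genes and unnamed features 49.6% passed, 23.9% below 0 and 25.8% above 0, and each family is small. Only Hdac5 of the 7 passed the test beyond 1.2-fold, and none passed with the pool counted as a mouse. Hdac6, a mostly cytoplasmic deacetylase of tubulin, had ratios of −0.465, −0.46, −0.47, −0.70 and −0.020 in mice 1 to 5. Mice 1 to 3 were close together, mouse 4 was lowest and mouse 5 lay near 0. Its mean was −0.42 ± 0.25 (SD, n = 5), a 1.34-fold difference with adjusted p = 0.00917. Hdac1, a catalytic subunit of the NuRD, Sin3 and CoREST corepressors, averaged −0.25 ± 0.18, with mouse 1 at 0.021 and the other mice below 0.

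Hdac5, a class IIa deacetylase that shuttles out of the nucleus on signalling, had 0.83, 0.35, 0.61, 0.87 and 0.48. All mice were above 0, with mice 1 and 4 highest. The mean was 0.63 ± 0.22 (SD, n = 5), a 1.55-fold difference with adjusted p = 0.00120. Its relative Hdac7, which is enriched in endothelium, averaged 0.42 ± 0.19. Hdac2, the close paralogue of Hdac1, averaged 0.45 ± 0.11 on 4 arrays, on the opposite side of 0 from Hdac1. Hdac3, the catalytic subunit of the NCoR and SMRT complexes, stood at 0.36 ± 0.093, and Hdac8, a class I enzyme that acts on cohesin, at 0.19 ± 0.087. Hdac1 no longer passed without mouse 2, 3, 4 or 5 (adjusted p up to 0.0826) and Hdac8 without mouse 2 or 3 (adjusted p up to 0.0720).

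Of 3 measured sirtuins, 2 passed above 0 and 0 below, where 25.8% and 23.9% of all genes did. Sirt1, the nuclear sirtuin that deacetylates histones and p53, had 1.43, 1.49, 1.875, 1.98 and 1.76. The lowest mouse stood at 1.43, and the spread between mice was small beside the mean of 1.71 ± 0.24 (SD, n = 5), a 3.26-fold difference with adjusted p = 3.03e-05. By the size of its mean ratio on either side of 0 it ranked 106 of the 10081 genes and features. Sirt4, a mitochondrial sirtuin, had 0.43, 0.31, 0.62, 0.46 and 0.48, all above 0, and averaged 0.46 ± 0.11 with adjusted p = 0.000834. The mitochondrial deacetylase Sirt3 had values in 4 mice, 0.018, −0.043, −0.21 and −0.050, around 0. It averaged −0.070 ± 0.10 on 4 arrays and did not pass (adjusted p = 0.388).

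Of the 7 measured writers and readers of acetylation 1 passed, where 49.6% of all genes did. None of the 3 measured acetyltransferases passed by limma, and none had an unadjusted p under 0.05. Kat6b, a MYST family enzyme, had 0.20, −0.070, 0.13, 0.31 and −0.048 and averaged 0.11 ± 0.16 (adjusted p = 0.251). Its values lay on both sides of 0. Kat14, a subunit of the ATAC complex, averaged 0.10 ± 0.15 and Kat8, which acetylates histone tails and p53, 0.053 ± 0.12.

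Brd2, a BET reader of acetylated histones, had −0.63, −0.445, −0.59, −0.59 and −0.63. Of the chromatin regulators that passed below 0 it had the narrowest spread, with mouse 2 nearest to 0. The mean was −0.58 ± 0.076 (SD, n = 5), a 1.49-fold difference with adjusted p = 0.000191. The related BET protein Brd3 had 0.057, 0.54, 0.34, 0.81 and −0.16. Its mice were widely scattered, and with a mean of 0.32 ± 0.38 it did not pass (adjusted p = 0.0925), although it did without mouse 5 (0.435, adjusted p = 0.0358). Brd7, a subunit of a BAF complex variant, averaged −0.095 ± 0.32, and Brd8, of the NuA4 acetyltransferase complex, 0.12 ± 0.072, neither past the threshold.

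**Figure D2:**
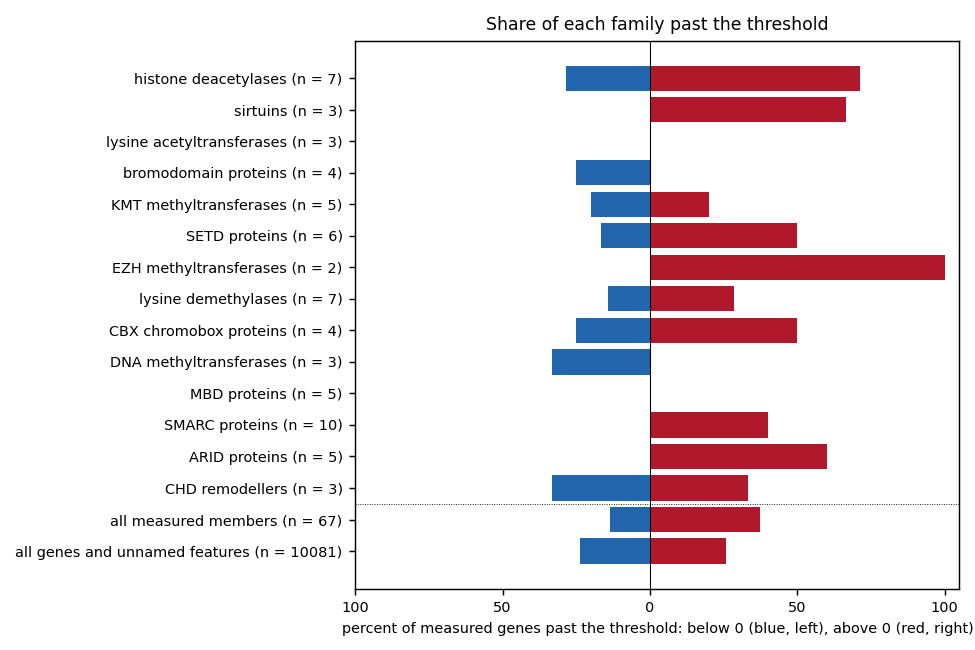
Percent of the measured genes of each family (y axis, number measured in brackets) that passed below 0 (left, blue) or above 0 (right, red), with all 67 chromatin regulators and all 10081 genes and unnamed features at the foot. The families are small, and of all genes 23.9% passed below 0 and 25.8% above 0.

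Among 13 methyltransferase genes, 2 passed below 0 and 6 above 0, against 23.9% and 25.8% of all genes. Of the KMT group 1 of 5 passed on each side. Kmt2a, known as MLL, a trithorax enzyme of active promoters, had −0.30, −0.26, −0.65, −0.195 and −0.39. All mice were below 0, mouse 3 most. The mean was −0.36 ± 0.18 (SD, n = 5), a 1.28-fold difference with adjusted p = 0.00686. Kmt2b, its closest relative, had 0.12, 0.43, 0.30, 0.72 and 0.85. All of these were above 0 and mouse 1 was nearest to it. The mean was 0.49 ± 0.30 (SD, n = 5), a 1.4-fold difference with adjusted p = 0.00981, so the pair lay on opposite sides. Kmt2c, Kmt2e and Kmt5a averaged 0.0064, −0.081 and −0.045 and did not pass.

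Of 6 SETD proteins, 1 passed below 0 and 3 above 0, where 23.9% and 25.8% of all genes did. Setd3, an actin histidine methyltransferase rather than a histone enzyme, had 0.65, 0.275, 0.51, 0.54 and 0.48. Mouse 2 was lowest and the others lay close together. It averaged 0.49 ± 0.14 with adjusted p = 0.000942. Setd4 had −0.63, −0.32, −0.078, −0.34 and −0.19, all below 0 with mouse 3 nearest to it, and averaged −0.31 ± 0.21 with adjusted p = 0.0186. Without mouse 2 or 4 it missed the threshold (adjusted p up to 0.0536). Setdb1, the heterochromatin methyltransferase recruited by Trim28, averaged 0.24 ± 0.094, and Setd1a, a writer of promoter methylation, 0.20 ± 0.15. The Setd1a call was lost without mouse 2, 3, 4 or 5 (adjusted p up to 0.122). Setd2 averaged −0.17 and Setd7 0.10, and neither passed. Each of these averages joined a feature past the threshold below 0 with another past it above 0.

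Both catalytic subunits of the Polycomb repressive complex PRC2 passed above 0, where 25.8% of all genes and unnamed features did. With the pool counted as a mouse neither passed (adjusted p = 0.258 for Ezh1 and 0.475 for Ezh2). In the test beyond 1.2-fold Ezh1 passed and Ezh2 did not. Ezh1 had 0.94, 0.11, 0.78, 0.73 and 0.60. Mouse 2 was far lower than the other mice. Its mean was 0.63 ± 0.32 (SD, n = 5), a 1.55-fold difference with adjusted p = 0.00397. Ezh2, which is usually high in dividing cells, had 0.86, 0.28, 0.26, 0.12 and 0.30. Mouse 1 stood apart at 0.86 and the other mice lay between 0.12 and 0.30. The mean was 0.36 ± 0.29 (SD, n = 5), a 1.29-fold difference with adjusted p = 0.0257, and it was 0.24 without mouse 1, where it still passed. Leaving out mouse 2, 3 or 5 ended the call (adjusted p up to 0.0581). Dividing cell markers had a median of −0.68, with list means between −0.80 and −0.49 on the arrays. A link between these markers and the Ezh2 ratio was not tested.

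Of 7 measured demethylases, 1 passed below 0 and 2 above 0, against 23.9% and 25.8% of all genes. Kdm5c, which removes methyl groups from active promoters, had −0.89, −0.45, −0.83, −0.33 and −0.48. All mice were below 0, and mice 1 and 3 were lowest. Its mean, the lowest of all measured chromatin regulators, was −0.59 ± 0.25 (SD, n = 5), a 1.51-fold difference with adjusted p = 0.00227. Kdm5b, of the same subfamily, had 0.208 in mouse 2 and −0.755 in mouse 1 and did not pass (adjusted p = 0.455). Kdm4c, which acts on heterochromatin marks, had 0.86, 0.65, 1.085, 0.30 and 0.19. Mice 4 and 5 were closest to 0. The mean was 0.62 ± 0.38 (SD, n = 5), a 1.53-fold difference with adjusted p = 0.00826. Kdm1a, the flavin-dependent demethylase LSD1, averaged 0.28 ± 0.060 on 4 arrays with adjusted p = 0.00947. Kdm3b had a mean of 0.13 and adjusted p = 0.0579, and it passed (adjusted p = 0.0413) where the arrays were not centred again. Kdm7a and Kdm8 averaged 0.065 and −0.065.

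Among readers of histone methylation, the heterochromatin protein Cbx3 had −0.18, −0.18, −0.57, −0.26 and −0.049. All mice were below 0, with mouse 3 lowest. It averaged −0.25 ± 0.20 (adjusted p = 0.0357) and no longer passed without mouse 1, 2, 3 or 4 (adjusted p up to 0.0839). Its paralogue Cbx1 averaged 0.21 ± 0.15 (adjusted p = 0.0341), with mouse 1 at −0.024, and missed it without mouse 2, 3, 4 or 5 (adjusted p up to 0.104). Cbx6, a Polycomb reader, had 0.61, 0.32, 0.19, 0.16 and 0.17 as the mean of a pair of features and averaged 0.29 ± 0.19 (adjusted p = 0.0189). Mouse 1 was highest. It no longer passed without mouse 2 (adjusted p = 0.0577). Cbx8, also of Polycomb complexes, averaged 0.022 and did not pass.

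Of the DNA methylation genes, 1 of 8 passed, where 49.6% of all genes did. Dnmt3a, a de novo DNA methyltransferase, had −0.245, −0.67, −0.79 and −0.59 in mice 1, 3, 4 and 5. All 4 were below 0, mouse 1 least. The mean was −0.57 ± 0.23 (SD, n = 4), a 1.49-fold difference with adjusted p = 0.00449. Dnmt3b, the other de novo enzyme, had 0.087, −0.034, 0.028, −0.033 and 0.027. These lay within 0.1 of 0, and the mean was 0.015 ± 0.051 (adjusted p = 0.808). Its cofactor Dnmt3l averaged −0.089 (adjusted p = 0.361). Dnmt1, the maintenance enzyme, had values on 2 arrays, 0.054 and 0.145, and was not tested.

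None of the 5 measured MBD proteins, which bind methylated DNA or belong to repressor complexes, passed by limma, where 49.6% of all genes did. None had an unadjusted p under 0.05. Mbd3, a NuRD subunit, had −0.81, −0.33, −0.34, 0.52 and −0.16. Mouse 4 was above 0 and the others below, so that the mean of −0.23 ± 0.48 did not pass (adjusted p = 0.298). Without mouse 4 it stood at −0.41 and passed (adjusted p = 0.0285). Mbd1, which also binds methylated DNA, had 0.16, 0.34, 0.415, −0.045 and 0.021 and averaged 0.18 ± 0.20 (adjusted p = 0.103). Mbd2, Mbd4 and Mbd6 averaged 0.12, −0.092 and −0.092.

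Of 10 SMARC proteins, most of them parts of nucleosome remodellers, 4 passed above 0 and 0 below. Of all genes 25.8% passed above 0 and 23.9% below. Smarcc2, a scaffold of the BAF (SWI/SNF) complex, had 0.45, 0.96, 1.155, 1.07 and 0.44. Mice 2, 3 and 4 were highest and mice 1 and 5 lowest. The mean was 0.82 ± 0.35 (SD, n = 5), a 1.76-fold difference with adjusted p = 0.00185. Smarca2 and Smarca4 are the alternative ATPases BRM and BRG1 of that complex. Smarca2 had 0.61, 0.705, 0.59, 1.30 and −0.26, with mouse 5 below 0 and mouse 4 highest. Its mean of 0.59 ± 0.56 passed (adjusted p = 0.0391) but no longer passed without mouse 1, 2, 3 or 4 (adjusted p up to 0.102). Smarca4 had 0.12, −0.35, −1.275, −0.26 and 0.25. Mouse 3 was far below the others, 2 of which were above 0. It averaged −0.30 ± 0.60 and did not pass (adjusted p = 0.254).

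The core BAF subunit Smarcb1 averaged 0.29 ± 0.074 with adjusted p = 0.00338 and lay above 0 in every mouse. Smarcal1, which repairs stalled replication forks, averaged 0.27 ± 0.21 (adjusted p = 0.0351). It no longer passed without mouse 1, 2, 3 or 5 (adjusted p up to 0.103). The accessory subunits Smarcd1, Smarcd2 and Smarcd3 averaged 0.093, 0.10 and −0.028, the remodeller Smarcad1 0.17 and the ISWI ATPase Smarca5 −0.00040, none past the threshold.

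ARID proteins share a DNA-binding domain, and 3 of 5 passed above 0 and 0 below, against 25.8% and 23.9% of all genes. Arid5b, a partner of a demethylase that acts in fat and mesenchymal cells, had 0.98, 0.51, 0.92, 0.57 and 0.58. All mice were above 0, with mice 1 and 3 highest. The mean was 0.71 ± 0.22 (SD, n = 5), a 1.64-fold difference with adjusted p = 0.000687. Arid2, the targeting subunit of a BAF variant, averaged 0.52 ± 0.20 with adjusted p = 0.00214 and mouse 4 lowest at 0.18. Arid3a averaged 0.22 ± 0.14 (adjusted p = 0.0266) and no longer passed without mouse 2, 3, 4 or 5 (adjusted p up to 0.0856). Arid3b had −0.18, −0.22, 0.029 and −0.275 in the 4 mice with values, mice 1, 3, 4 and 5, and did not pass (mean −0.16 ± 0.13 on 4 arrays, adjusted p = 0.107). Arid4b, a Sin3 partner, averaged −0.046.

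Of 3 CHD remodellers, 1 passed on each side, where 23.9% of all genes passed below 0 and 25.8% above 0. Chd4, the main ATPase of NuRD, had −0.48, −0.53, −0.52, −0.80 and −0.34. All mice were below 0, with mouse 4 lowest. The mean was −0.54 ± 0.17 (SD, n = 5), a 1.45-fold difference with adjusted p = 0.00109. Its paralogue Chd3 had 1.22, 0.17, −0.021, −0.053 and 0.0010. Mouse 1 stood far above the others, and the mean of 0.26 ± 0.54 did not pass (adjusted p = 0.277). Chd2 averaged 0.25 ± 0.086 with adjusted p = 0.00789 over a pair of features.

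Several genes had a pair of features on the arrays that can be set side by side, 7 of the 67. When single features were tested in place of genes, 49.6% of 10702 passed. The Setd7 features averaged 0.40 ± 0.094 (adjusted p = 0.00115) and −0.20 ± 0.084 (adjusted p = 0.0183), each on 1 side in every mouse. Setd7, a lysine methyltransferase of histones and other proteins, thus passed on both sides while its average of 0.10 did not. The same held for Setd2, which methylates histones along transcribed genes. One of its features averaged 0.24 ± 0.15 (adjusted p = 0.0220) and the other −0.57 ± 0.44 (adjusted p = 0.0187). For Cbx6 the features stood at 0.70 ± 0.27 (adjusted p = 0.00136) and −0.12 ± 0.15 (adjusted p = 0.164), and for Chd2 at 0.55 ± 0.18 (adjusted p = 0.00116) and −0.058 ± 0.090 (adjusted p = 0.402). The calls of Cbx6 and Chd2 therefore rested on 1 feature each. In Brd8 a feature at 0.25 ± 0.13 passed (adjusted p = 0.0138) and the other, at −0.019 ± 0.045, did not. Both features of Kat8 and of Smarca5 did not pass.

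**Figure D3:**
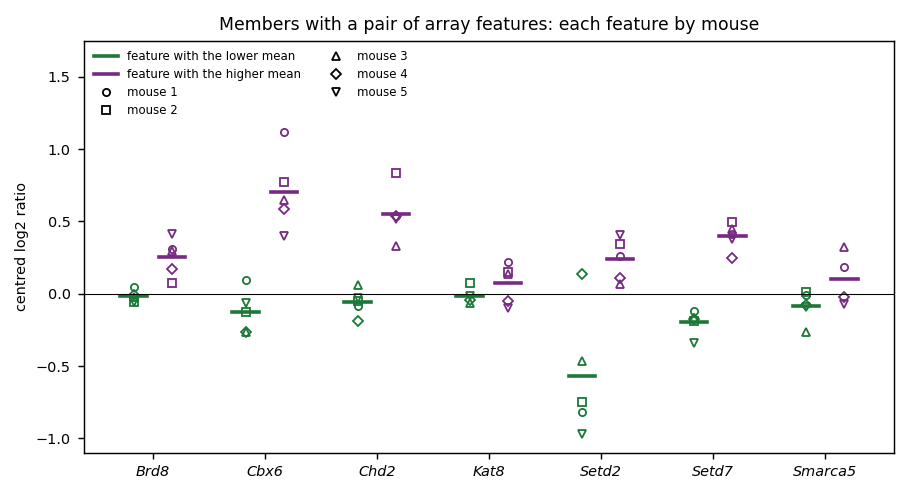
Centred log2 ratio (y axis) of each feature of the 7 genes with a pair of measured features (x axis), with a symbol for each mouse and a bar for the mean. The features of Setd7 and Setd2 averaged 0.40 against −0.20 and 0.24 against −0.57.

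Of 34 genes past the threshold, 23 passed without each mouse in turn and 11 missed it without at least 1 mouse. None of the 34 changed side in any setting, although for 29 of them, with all arrays on 1 side, leaving out a mouse could not change it. The 11 were Hdac1, Hdac8, Setd4, Setd1a, Ezh2, Cbx3, Cbx1, Cbx6, Smarcal1, Smarca2 and Arid3a. Among the 55 genes with values in all mice, mouse 1 was highest for 17 and lowest for 10, and mouse 4 highest for 14 and lowest for 13. Mouse 1 was thus an end of the range for 49.1%, against 50.3% of all genes, and mouse 4 for 49.1% against 42.5%. Mouse 1 also had the widest deposited ratios, with an SD of 0.59 against 0.49 to 0.53 on the other arrays.

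**Figure D4:**
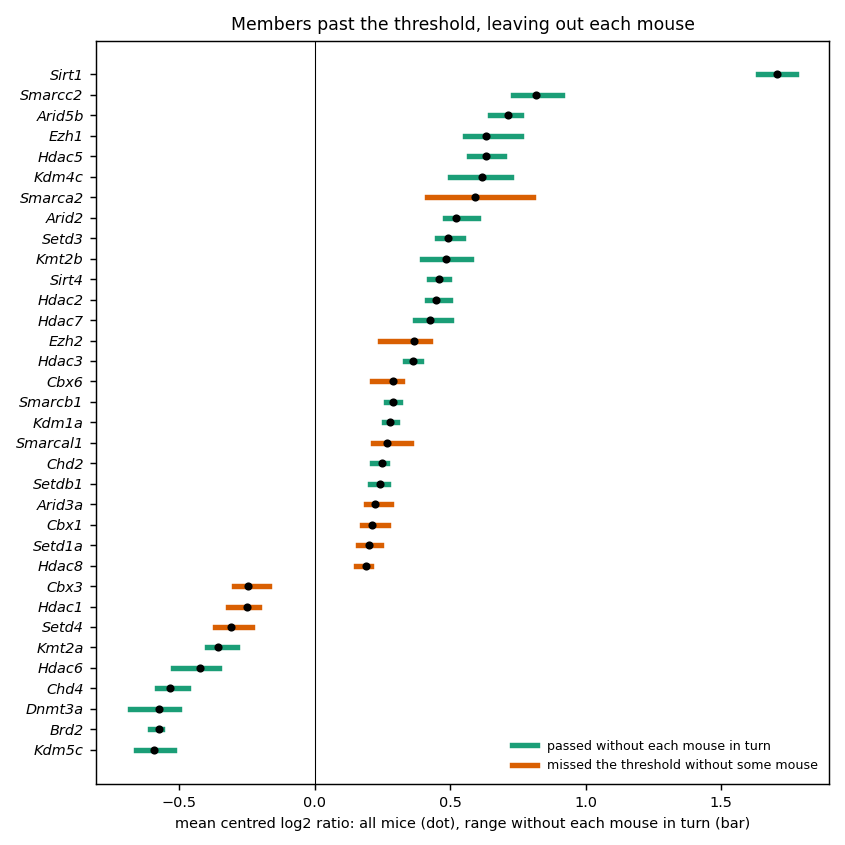
Mean centred log2 ratio (x axis) of the 34 chromatin regulators past the threshold (y axis): dots are means over all mice and bars run from the lowest to the highest mean without each mouse in turn. The 11 genes in orange missed the threshold without at least 1 mouse. No bar crosses 0, and for genes with all arrays on 1 side none could.

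Of the 89 symbols, 22 were not kept, 9 of which had no value on any array. Those 9 were Hdac9, Sirt2, Sirt6, Kdm4b, Smarca1, Smarce1, Chd1, Chd1l and Chd6. The other 13 had values on 1 to 3 arrays and were not tested. Mbd3l1, a relative of Mbd3, had 3 values from −1.06 to −0.64, and all values of the other 12 lay between −0.288 and 0.243. Among these were the acetyltransferases Kat2a and Kat2b, the Polycomb readers Cbx2 and Cbx7, the demethylases Kdm2b, Kdm5a and Kdm5d, and Hdac11, Kmt5b, Setd6, Dnmt1 and Smarcc1.

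Other genes of chromatin were taken from 7 lists of complex partners and further enzymes, 122 measured genes in all. Of these, 30 passed below 0, 37 above 0 and 55 did not pass, or 54.9% against 49.6% of all genes, with a median of 0.030. A difference of at least 2-fold was found for 10 of the 122, where 5.59% of all genes and unnamed features passed at that size. With the pool counted as a mouse 12 of the 122 passed, where 5.09% of all did.

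Polycomb partners had 2 of 15 past the threshold below 0 and 7 above 0, where 23.9% and 25.8% of all genes passed. Yy1, a DNA-binding factor linked to Polycomb and to many promoters, stood at 1.63 ± 0.16 (SD, n = 5; adjusted p = 2.16e-05), and Mtf2, a PRC2 accessory protein, at −0.65 ± 0.50 (adjusted p = 0.0190). Eed, the core PRC2 partner of Ezh1 and Ezh2, stood at 0.27 ± 0.15 (adjusted p = 0.0151). Further histone and arginine methyltransferases had 7 of 16 below 0 and 1 above. Nsd2 was farthest below, at −0.86 ± 0.13, and Men1, the MLL partner menin, above, at 0.34 ± 0.31.

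Acetyltransferase partners had 3 of 17 below and 8 above 0, against 23.9% and 25.8% of all genes. Tada1, a subunit of the SAGA complex, stood at −1.52 ± 0.24 and Morf4l1, a chromodomain subunit of NuA4 and Sin3 complexes, at 0.93 ± 0.16. Deacetylase corepressor partners had 3 of 16 below and 5 above 0, with the CoREST protein Rcor2 at −0.80 ± 0.14 and the Sin3 subunit Suds3 at 0.97 ± 0.20. Rbbp4, a histone-binding subunit shared by NuRD, Sin3 and PRC2, stood at 0.77 ± 0.15.

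Further remodelling subunits had 7 of 26 on each side, where 23.9% of all genes passed below 0 and 25.8% above 0. They ran from Znhit1 of the SRCAP complex at −0.49 ± 0.13 to Adnp, a partner of Chd4, at 1.17 ± 0.30. In the list around DNA methylation 1 of 7 was below 0, the cytidine deaminase Apobec1 at −1.52 ± 0.38, and 3 above, led by the DNA glycosylase Tdg at 0.65 ± 0.24. Histone chaperones, variants and HMG proteins had 7 of 26 on each side. Cenpa, the centromeric histone and also a dividing cell marker, stood at −1.16 ± 0.37 and Ptma, the histone-binding acidic protein prothymosin alpha, at 1.504 ± 0.40.

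**Figure D5:**
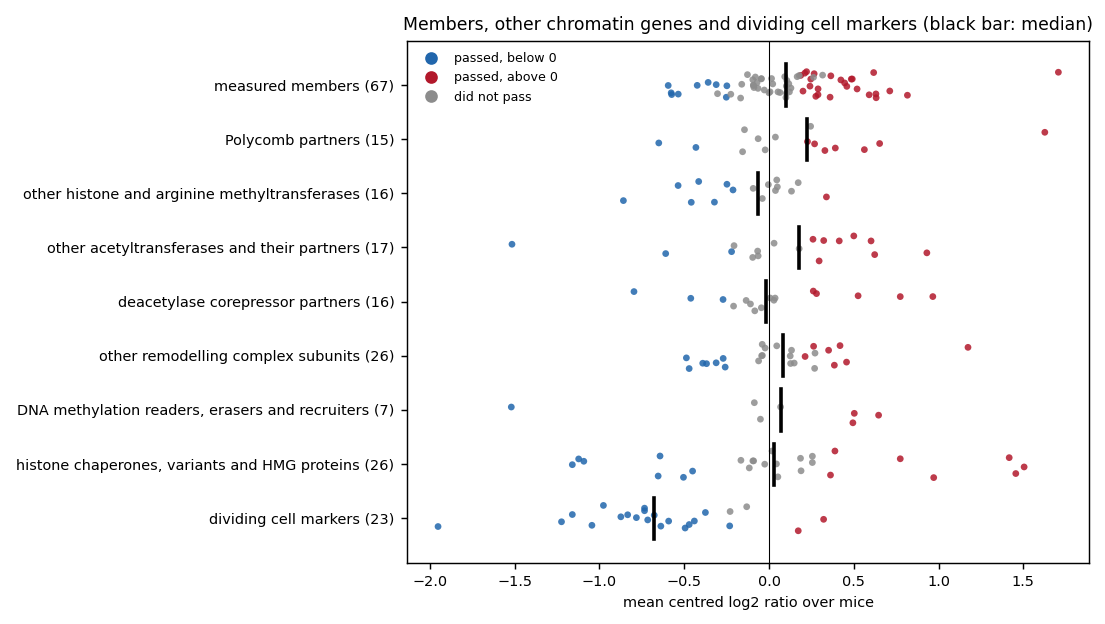
Mean centred log2 ratio over mice (x axis) of the 67 chromatin regulators, of 7 lists of other chromatin genes and of dividing cell markers (y axis, number measured in brackets). Each dot is a gene coloured by its call and black bars are medians, which run from −0.066 to 0.23 for the 7 lists and stand at −0.68 for dividing cell markers.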

How the data were processed

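Lung RNA of 5 bleomycin-treated 129svJ mice was measured on 2-colour arrays against 1 control pool. The values deposited by the authors are log ratios, taken as log2, near a median of 0 per array. The sources used here do not give the scanner, dyes, normalization or log base. Of 17280 features, 10702 had values on at least 4 arrays. Each array was centred on its median, and features were averaged per symbol of the platform annotation, in which 14722 features have 1 symbol, 1 has several and 2557 have none. The 10081 resulting genes and unnamed features were fitted with limma 3.58.1 in R 4.3.3 (intercept only, empirical Bayes, two-sided, Benjamini-Hochberg). The procedure was tested on simulated data with planted shifts of 1 log2 unit and independent noise. These data held no error shared by all arrays, so the test does not bear on the shared pool or on smaller ratios. The pool enters as fixed control, so the spread between control mice is left out. The labels name separate mice.

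Alternatives were no further centring, features on at least 3 or on all 5 arrays, the pool as 1 control mouse (standard error with the pool's own deviation added), a required 1.2-fold difference, robust empirical Bayes, symbols updated through RefSeq (GRCm38.p6), the median of features, and leaving out each mouse. Ratios by mouse are given for genes past the threshold and at least 1 log2 unit from 0, for the lowest and highest gene of each family and for genes past the threshold with the pool as a mouse. Of other chromatin lists the text names the lowest and the highest gene past the threshold; Eed and Rbbp4 were added after their values were seen. The genes and lists were chosen with earlier results of these data known. One symbol that fits the name patterns is not reported here. Promoter motifs were chosen after the ratios were seen, 9 were searched, and the NRF1 motif was first searched in a longer form and then as its core.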

Additional observations from a re-analysis of the deposited data

Results flagged for a closer look

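In groups of this size the check for a sample far from the rest picks about 1 in 20 groups by chance, and of 67 chromatin regulators it picked 4. Chd3 was at 1.22 in mouse 1, with the other mice between −0.053 and 0.167. Ezh2 was at 0.861 in mouse 1, with the others between 0.123 and 0.303. Setd2 was at 0.123 in mouse 4, with the others between −0.28 and −0.198. Brd2 was at −0.445 in mouse 2, with the others between −0.631 and −0.587.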

How the results depend on the processing

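Of 67 chromatin regulators, 9 passed below 0 and 25 above 0. With the pool counted as 1 control mouse 1 passed on each side, and with a required 1.2-fold difference 3 below 0 and 8 above 0. The other chromatin genes, 30 below 0 and 37 above 0, fell to 6 and 6 and to 12 and 15 in these settings. Without each mouse in turn, 6 to 8 chromatin regulators passed below 0 and 17 to 23 above 0, and of the other chromatin genes 27 to 28 and 30 to 36. In the remaining 6 settings the counts stayed within 1.5 times of these. Fewer genes of either kind can pass where a larger difference or a wider error is asked for, and fewer mice give less precision. None of the 34 genes past the threshold changed side in any setting run, whereas 9 of those not past it did or came to lie on the other side when 1 mouse was left out. The pool as 1 mouse, the required 1.2-fold difference and robust empirical Bayes leave the means as they are, so no side could change there. For 29 of the 34, all arrays lay on 1 side, so leaving out a mouse could not change it. The contrast is thus largely set by the choice of genes past the threshold and is no measure of stability. Smarca5 was at 0.0152 without further centring, and Kmt2e was at 0.0445 with features on at least 3 arrays. Means over the arrays left after leaving out 1 mouse ran from −0.211 to 0.030 for Kdm5b, −0.0030 to 0.0273 for Dnmt3b, −0.123 to 0.113 for Kmt2c, −0.0485 to 0.00225 for Smarcd3, −0.207 to 0.014 for Brd7, −0.0228 to 0.0199 for Smarca5, −0.105 to 0.0095 for Arid4b and −0.017 to 0.064 for Cbx8. No paired analysis was possible because the arrays form 1 group. Signal over background is unknown without intensities.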
